A study of Mus musculus with 8 samples.

Results

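The genes described here encode the subunits of the proteasome and the factors that assemble, activate or inhibit it. They were chosen by symbol alone, as every mouse gene named Psma, Psmb, Psmc, Psmd, Psme, Psmf or Psmg with a number, and 48 symbols fit this rule. A probe was matched for 47 of them, out of 22911 genes with a matched probe on the array, and no probe was matched to Psme2. Of the 47 genes, 43 gave a signal well above background on enough arrays to be tested, out of 14836 genes tested in all. Each gene is given by its brightest probe.

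The data come from photoreceptor cells of the retina of C57BL/6 mice at postnatal day 8 (P8), with 4 single-color Agilent microarrays labelled Lpcat1 HZ (heterozygous) and 4 labelled Lpcat1 KO. Lpcat1 encodes an enzyme that adds fatty acids to lysophosphatidylcholine, and the HZ controls also carry 1 deleted copy of it. According to the methods, the KO line came from a C57BL6/N background and was crossed with C57BL6/J mice to remove the rd8 mutation of Crb1, and cells carrying the surface protein CD73 were collected with magnetic beads. The labels do not say whether the 4 samples of a group came from separate animals, so that p-values measure the spread between these samples only. The arrays labelled KO lay in 1 row of the slide and those labelled HZ in the other, and slide row and genotype cannot be told apart. The probe of Lpcat1 read alike under both labels, with a KO minus HZ difference of -0.037 on the log2 scale (SE 0.11, limma adjusted p = 0.930). Its position relative to the deleted part of the gene is not known here, so that it does not check the labels. All 12 rod markers, among them Nrl and Crx, were well above background on all 8 arrays.

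The proteasome degrades proteins that carry a chain of ubiquitin. Its 20S core is a barrel of alpha and beta rings, with the proteolytic sites on certain beta subunits, and the 19S regulatory particle binds, unfolds and feeds the substrate into the barrel. Under interferon the catalytic beta subunits are exchanged for inducible ones, which gives the immunoproteasome, and photoreceptors are known to depend on proteasome capacity when they handle misfolded proteins. All levels below are log2 signal intensities minus the 75th percentile of the array, called the normalized log2 signal, and all differences are KO minus HZ on that log2 scale. In these bulk samples, fewer cells of a type and less RNA per cell cannot be told apart.

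Proteasome transcripts were nearly level between the groups. The 43 differences ran from -0.253 for Psmg3 to 0.491 for Psmc2, and 41 of the 43 genes (95.3%) differed by less than 1.2-fold, as did 79.1% of all tested genes. All 43 differed by less than 1.5-fold, against 95% of all tested genes. The 95% interval of the difference lay within 1.5-fold in either direction for 38 of the 43 genes (88.4%), against 68.2% of all tested genes. All 43 genes were well above background on every array, as were 13342 of the 14836 tested genes. Genes of like brightness were not compared. Intervals within 1.2-fold were found for 10 of the 43 genes, so that a change of that size was not bounded for most of them.

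No proteasome gene passed the thresholds that the methods give. At a fold over 1.2 with a limma adjusted p under 0.05, 0 of the 43 genes were called, beside 0% of the 34280 probes tested. At a fold over 1.5 with an adjusted p under 0.5, 0 of the 43 were called, beside 1.04% of the probes (0.228% higher in KO). At an unadjusted p under 0.05, 1 of the 43 genes (2.33%) was called, Psmb1, which was higher in KO, beside 8.17% of the probes (4.69% higher in KO). The groups did not overlap for 2 of the 43 genes (4.65%), Psmb1 and Psmc6, beside 6.33% of the probes, and both were higher in KO, the direction of 4.2% of the probes. Counted in either direction, both shares are below those of the probes at large. Higher in KO alone, the groups did not overlap for 4.65% of the genes and 4.2% of the probes. These counts of 1 and 2 genes were not tested against the probes. The smallest adjusted p among the 43 genes was 0.514.

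The direction of the small differences was mostly upward. Of the 43 genes, 31 (72.1%) had a higher mean in KO, against 56.8% of all tested genes, and the median difference was 0.067 against 0.029 over the 14836 genes. With quantile normalization, 24 of the 43 genes (55.8%) were higher in KO, against 56.8% of all genes. The median was then 0.016 against 0.026 over all genes. With normexp background correction 31 genes were higher (72.1%, against 58.4% of all genes), and with the deposited values 32 (74.4%, against 60.1%). The normexp setting also changed the signal measure, from the scanner's background-corrected signal of a spot to its median signal. The part of each change was not tested. The percentile over probes detected on every array gave 28 (65.1%, against 51.5%). The share of genes that were higher in KO therefore depended on how the arrays were scaled, most of all with quantile normalization.

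**Figure D1:**
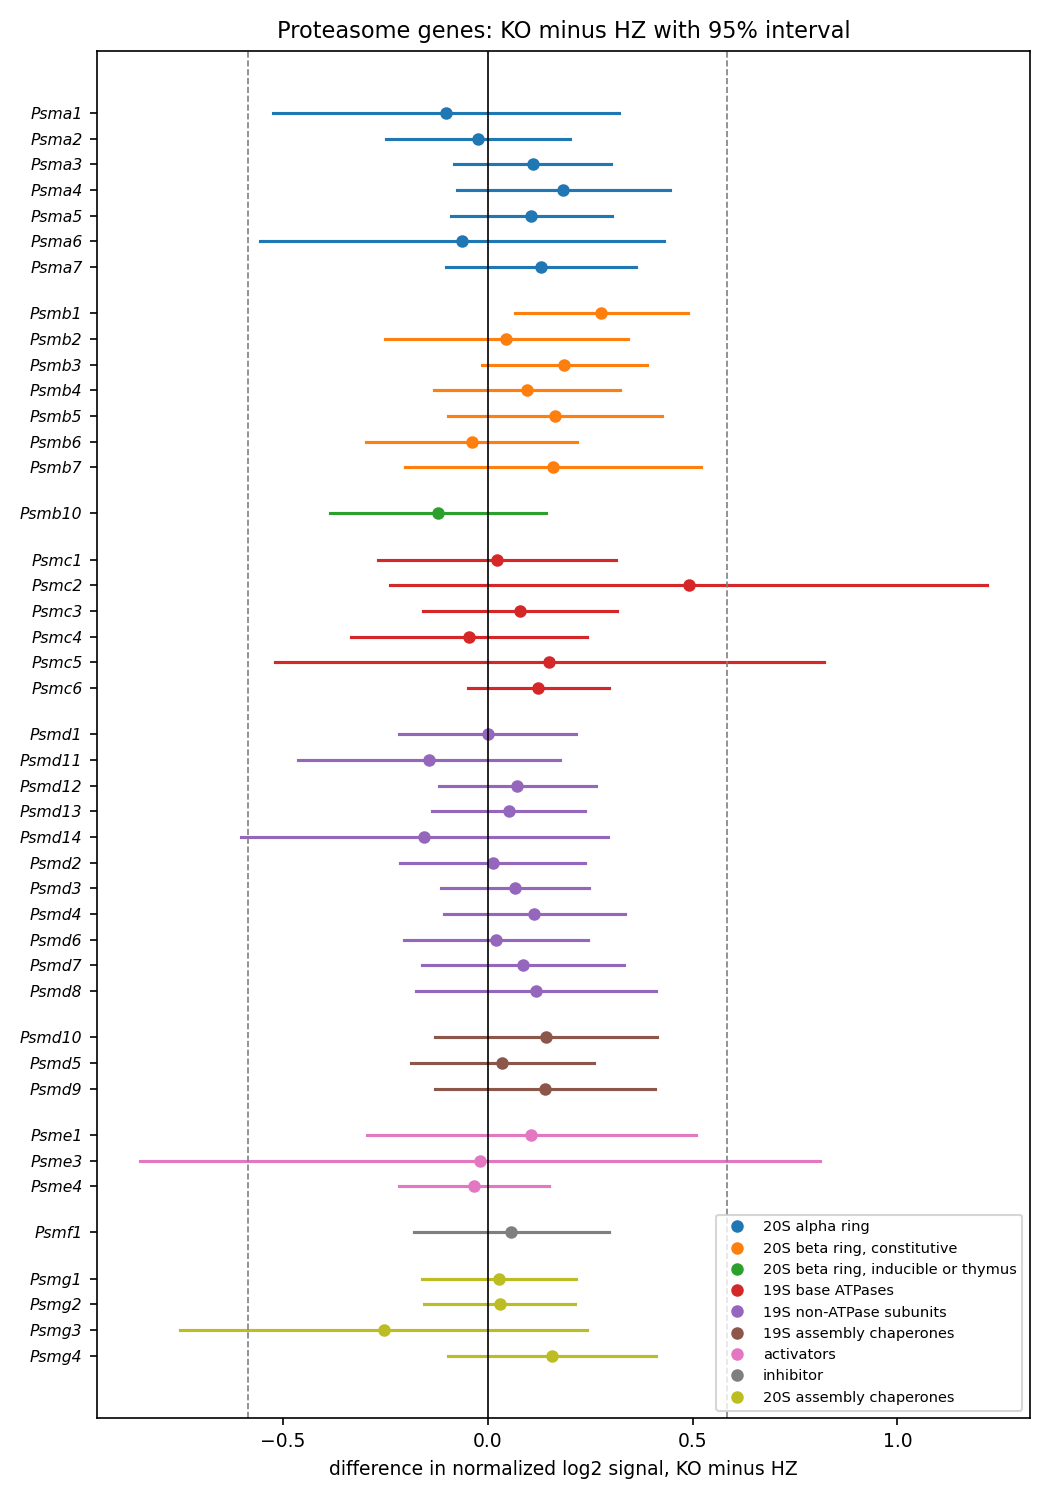
KO minus HZ difference in normalized log2 signal for each of the 43 tested proteasome genes (points) with its 95% interval from limma (lines), colored by subcomplex, where the dashed lines mark a 1.5-fold difference. The Psmb1 interval alone lies to 1 side of 0, and the widest intervals are those of Psmc2, Psmc5 and Psme3.

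Promoters were searched for letters known from proteasome gene regulation, in RefSeq windows of the GRCm38.p6 build that exist for 40 of the 48 genes. The antioxidant response element, the site of NRF1 and NRF2 (encoded by Nfe2l1 and Nfe2l2), was searched as TGACNNNGC on both strands and was found for 6 of the 40 genes (15%), namely Psmb5, Psmb6, Psmc6, Psmd9, Psmd12 and Psme4, against 14% of the 27025 genes in the table. The core of the interferon stimulated response element, searched on both strands as GAAA, any 2 bases and GAAA again, was found for 5 of the 40 (12.5%), namely Psmb3, Psmd4, Psmd9, Psme1 and Psmg4, against 3.99%. The CCAAT box, searched as CCAAT on both strands, was found for 14 of the 40 (35%) against 41.1%. The first 2 sequences below are shown because they lie before the start of catalytic subunits, and the third because the groups did not overlap for its gene. Capitals mark the letters of the antioxidant response element, which begin 47 bases before the start for Psmb5 and 9 bases before it for Psmb6. For Psmc6 they begin 227 bases before the start and read on the opposite strand.
Psmb5, chr14:54618010-54618066, minus strand: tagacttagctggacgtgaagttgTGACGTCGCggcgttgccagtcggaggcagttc
Psmb6, chr11:70525324-70525356, plus strand: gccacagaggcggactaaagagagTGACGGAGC
Psmc6, chr14:45329574-45329629, plus strand: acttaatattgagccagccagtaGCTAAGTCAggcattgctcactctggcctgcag
A match describes the letters in the window and not a bound site.

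The alpha ring forms the gate of the 20S core. Its 7 constitutive genes, Psma1 to Psma7, had a median difference of 0.107, with 4 genes higher and 3 lower in KO, and none passed an unadjusted p of 0.05. Psma4 read 4.75, 4.94, 4.77 and 4.55 on HZ replicates 1 to 4 and 4.92, 5.0, 4.76 and 5.07 on the KO replicates. The groups overlapped, and the difference of 0.18 (SE 0.113) had an unadjusted p of 0.139 in limma. Other Psma4 probes gave differences between -0.071 and 0.051. Psma7 read 4.03, 4.28, 3.99 and 3.88 in HZ and 4.23, 4.19, 4.14 and 4.13 in KO, with a difference of 0.13 (SE 0.101, limma adjusted p = 0.740). HZ replicate 2 stood above all 4 KO arrays for Psma7 and the other 3 HZ arrays stood below them. Psma8, the alpha subunit of the testis, was not well above background on any array by its brightest probe. A dimmer Psma8 probe was well above background on 1 KO array.

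The constitutive beta ring carries the proteolytic sites and had a median difference of 0.159, with 6 of its 7 genes higher in KO. The median was 0.073 with normexp background correction and 0.079 without KO replicate 2. Psmb1, a structural beta subunit without a proteolytic site, read 3.29, 3.47, 3.20 and 3.20 in HZ and 3.49, 3.62, 3.52 and 3.63 in KO. Every KO array was above every HZ array, although the highest HZ and the lowest KO array were close together. The difference was 0.28, or 1.21-fold (SE 0.092), with an unadjusted p of 0.016 and an adjusted p of 0.514 in limma. With normexp background correction, which started from the median signal of the spots, the Psmb1 difference was 0.074. Psmb3, another structural subunit, read 4.95, 5.09, 4.94 and 4.84 in HZ and 5.12, 5.16, 5.05 and 5.24 in KO. HZ replicate 2 was above KO replicate 3, and the difference of 0.19 (SE 0.088) had an unadjusted p of 0.065 in limma.

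**Figure D2:**
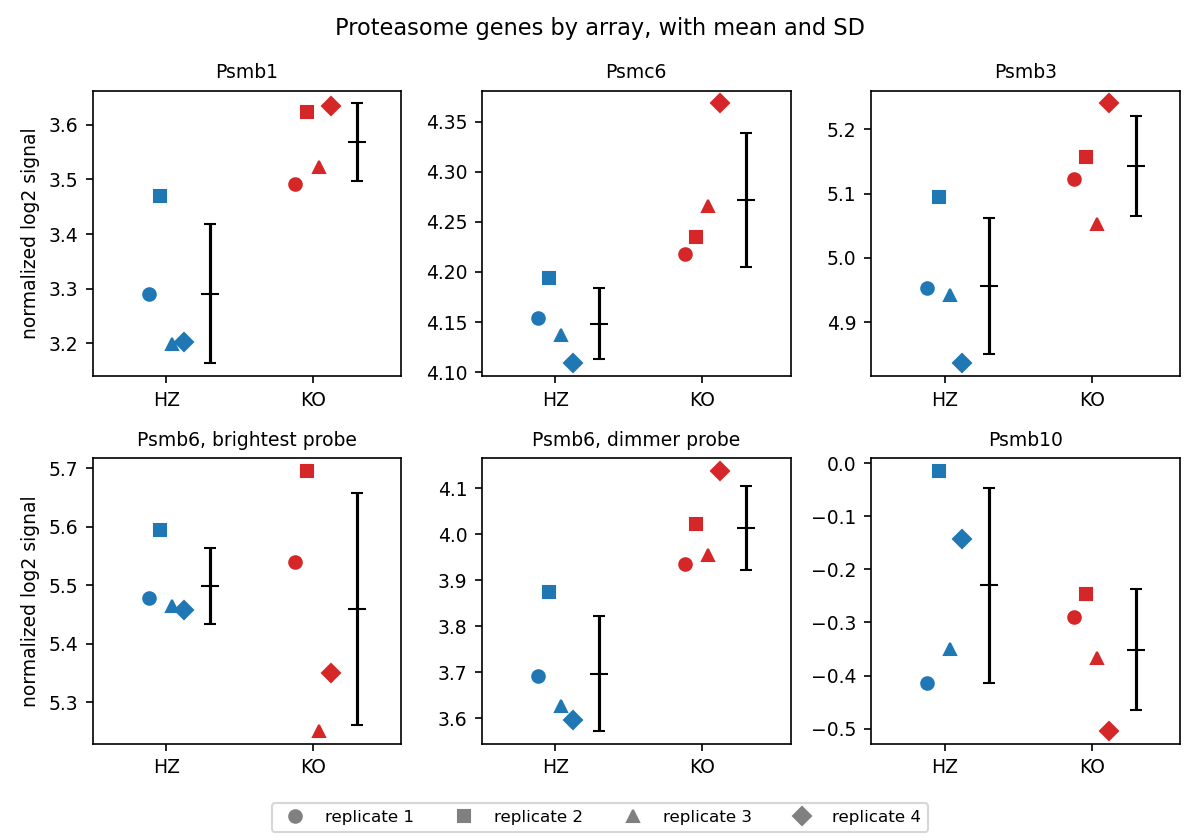
Normalized log2 signal on each array for Psmb1, Psmc6, Psmb3, both probes of Psmb6 and Psmb10, with HZ in blue, KO in red, marker shapes for the replicate number, and black bars for mean and SD (n = 4), each panel on its own axis. The KO points lie above all HZ points for Psmb1, Psmc6 and the dimmer Psmb6 probe, and replicate 2 is the highest HZ array in every panel.

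By their brightest probes, the 3 catalytic subunits differed little between the groups. Psmb5, with the chymotrypsin-like site, read 2.86, 3.11, 2.72 and 2.80 in HZ and 2.97, 3.07, 2.91 and 3.21 in KO, with overlapping groups and a difference of 0.16 (SE 0.113, limma adjusted p = 0.718). Psmb7, with the trypsin-like site, read 2.74, 2.97, 2.68 and 2.49 in HZ and 2.52, 3.13, 2.85 and 3.01 in KO. KO replicate 1 was the lowest but 1 of all 8 arrays for Psmb7, and the difference was 0.16 (SE 0.157, limma adjusted p = 0.784).

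Psmb6, with the caspase-like site, gave a different picture with each of its 2 probes. The brightest read 5.48, 5.59, 5.46 and 5.46 in HZ and 5.54, 5.70, 5.25 and 5.35 in KO, with a difference of -0.039 (SE 0.112, limma adjusted p = 0.927). The dimmer read 3.69, 3.87, 3.63 and 3.60 in HZ and 3.94, 4.02, 3.96 and 4.14 in KO, with a difference of 0.32 (SE 0.094) and an unadjusted p of 0.0098 in limma. The probes ranked KO replicate 4 differently, as the lowest but 1 of the arrays by the brightest probe and the highest by the dimmer one. Which transcripts each probe reads was not tested.

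The inducible subunits were near or below the detection limit apart from Psmb10. Psmb8 was well above background on 0 HZ arrays and 1 KO array, and Psmb9 on 2 HZ arrays and 1 KO array, and both were left untested. Psmb8 read -7.55, -6.18, -6.85 and -6.15 in HZ and -6.71, -5.08, -6.54 and -6.20 in KO. Psmb9 read -6.42, -5.56, -5.77 and -4.84 in HZ and -6.18, -6.06, -6.75 and -5.46 in KO. Most of these values were not well above background, and no order is read from them. The thymus subunit Psmb11 was well above background on 2 HZ arrays and 0 KO arrays. Psmb10, the inducible counterpart of Psmb7, was well above background on all arrays and read -0.41, -0.01, -0.35 and -0.14 in HZ and -0.29, -0.25, -0.37 and -0.50 in KO. The groups overlapped, with a difference of -0.12 (SE 0.115, limma adjusted p = 0.777).

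The Psmb10 signal minus the Psmb7 signal of the same array was used to ask whether the exchange pair changed unequally. This value was -2.95 ± 0.223 in HZ and -3.23 ± 0.305 in KO (SD, n = 4 each), where the offset itself has no meaning because probes differ in brightness. The difference of -0.28 had an exact permutation p of 0.171 (two-sided), and the smallest p that 4 against 4 arrays allow is 0.0286. With normexp background correction the difference was -0.059. The other 2 exchange pairs were not compared, since Psmb8 and Psmb9 were not well above background on enough arrays to be tested.

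**Figure D3:**
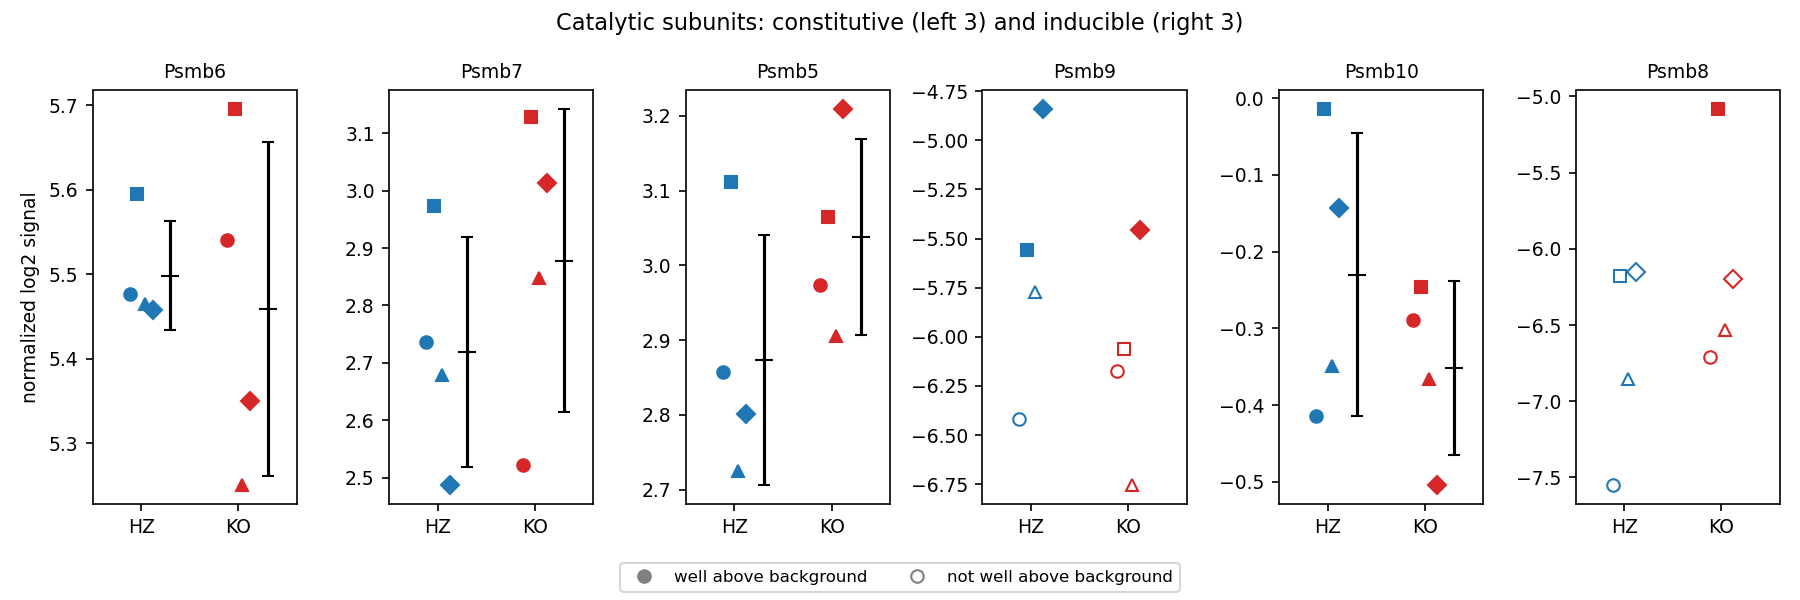
Normalized log2 signal on each array for the constitutive catalytic subunits Psmb6, Psmb7 and Psmb5 and their inducible counterparts Psmb9, Psmb10 and Psmb8, with HZ in blue, KO in red, and black bars for mean and SD (n = 4) of the genes above background on all arrays. Open symbols were not well above background, which holds for 7 of 8 Psmb8 values and 5 of 8 Psmb9 values, and each panel has its own axis because levels of different probes cannot be compared.

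The ATPases of the 19S base form the ring that unfolds the substrate. Their 6 genes had a median difference of 0.101, with 5 higher and 1 lower in KO. Psmc6 read 4.15, 4.19, 4.14 and 4.11 in HZ and 4.22, 4.23, 4.27 and 4.37 in KO. The groups did not overlap, but the difference was 0.12 (SE 0.075), with an unadjusted p of 0.136 and an adjusted p of 0.693 in limma. Psmc6 thus varied little within the groups and also differed little between them.

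Single arrays set the values of 2 other ATPase genes. Psmc2 read 2.68, 4.21, 4.01 and 3.88 in HZ and 4.08, 4.20, 3.98 and 4.48 in KO, and its difference of 0.49 (SE 0.317, limma adjusted p = 0.705) was the largest of the 43. HZ replicate 1 alone was low, and without it the difference was 0.15. Psmc5 read 3.32, 3.40, 3.22 and 2.14 in HZ and 3.40, 3.35, 2.75 and 3.18 in KO, with a difference of 0.15 (SE 0.291, limma adjusted p = 0.890). HZ replicate 4 was low for Psmc5, and without it the difference turned to -0.14. HZ replicate 4 also held the most spots with an uneven signal (458, where each of the other arrays held between 2 and 25). Spots with that mark were left out before averaging, so that the low Psmc5 value comes from a signal without it. The cause of the low value was not tested. For Psmc4, named here after its values were seen, the brightest probe gave -0.045 and a dimmer probe gave 0.29 (SE 0.120), with an unadjusted p of 0.041 in limma.

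The 11 non-ATPase genes of the 19S particle include the ubiquitin receptors and the lid with its deubiquitinase. They had a median difference of 0.052, with 8 higher and 3 lower in KO, and a range from -0.155 to 0.117. Psmd14, the deubiquitinase of the lid, read 2.99, 3.16, 3.13 and 2.99 in HZ and 2.70, 3.27, 2.44 and 3.25 in KO, with a difference of -0.15 (SE 0.195) and an unadjusted p of 0.450 in limma. The KO arrays fell on both sides of the HZ arrays, and without KO replicate 3 the difference was 0.0046. Psmd11, a scaffold subunit of the lid, read 1.06, 1.1, 0.81 and 1.02 in HZ and 0.52, 0.92, 0.85 and 1.13 in KO, with a difference of -0.14 (SE 0.139, limma adjusted p = 0.782). KO replicate 1 was the lowest array and KO replicate 4 the highest for Psmd11.

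The chaperones that build the 19S base, Psmd5, Psmd9 and Psmd10, were all higher in KO on average, with a median difference of 0.14. Psmd10, also called gankyrin, read 1.56, 1.75, 1.41 and 1.25 in HZ and 1.66, 1.72, 1.58 and 1.57 in KO. Psmd9 read -0.22, -0.03, -0.32 and -0.45 in HZ and -0.27, -0.05, -0.17 and 0.03 in KO. Both had a difference of 0.14 (limma adjusted p = 0.754), and for both HZ replicate 2 lay among or above the KO arrays while HZ replicate 4 was the lowest array.

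The chaperones of the 20S core had a median difference of 0.028, with 3 of 4 genes higher in KO. Psmg4 read -1.12, -0.67, -1.08 and -0.96 in HZ and -0.79, -0.81, -0.81 and -0.78 in KO, with a difference of 0.16 (SE 0.111, limma adjusted p = 0.722). The KO arrays were close together and lay above 3 HZ arrays and below HZ replicate 2. Psmg3 read 1.51, 2.03, 1.63 and 1.82 in HZ and 1.59, 1.82, 1.68 and 0.88 in KO, and its difference of -0.25 (SE 0.216, limma adjusted p = 0.759) was the lowest of the 43. KO replicate 4 alone was low, and without it the difference was -0.048.

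Activators cap the core in place of the 19S particle, and Psmf1 encodes the inhibitor PI31. The 3 tested activator genes had a median difference of -0.019. Psme1, a subunit of the interferon-inducible activator, read 0.93, 1.53, 1.07 and 0.73 in HZ and 1.12, 1.40, 1.1 and 1.07 in KO, with a difference of 0.11 (SE 0.174, limma adjusted p = 0.870). HZ arrays were both the highest and the lowest for Psme1, and without HZ replicate 4 the difference was -0.0068. Psme4, the nuclear activator PA200, read 3.61, 3.58, 3.67 and 3.76 in HZ and 3.57, 3.67, 3.56 and 3.67 in KO, with a difference of -0.033 (SE 0.080, limma adjusted p = 0.915). It turned to 0.18 with normexp background correction, with an unadjusted p of 0.046 in limma. Psmf1 read 1.66, 1.88, 1.73 and 1.57 in HZ and 1.72, 1.95, 1.68 and 1.72 in KO, with a difference of 0.058 (SE 0.103, limma adjusted p = 0.880). A dimmer Psmf1 probe gave 0.39 (SE 0.183), with an unadjusted p of 0.064 in limma and overlapping groups.

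Psme3, a subunit of the nuclear activator PA28 gamma, had the widest spread of the 43 genes and is named here after its values were seen. It read 2.07, 2.08, 3.31 and 3.30 in HZ and 2.91, 3.12, 2.18 and 2.47 in KO. HZ replicates 1 and 2 were low and 3 and 4 high, while KO replicates 1 and 2 were high and 3 and 4 low, so that the group means differed by only -0.019 (SE 0.361). Psma6, also named after its values were seen, read 4.37, 4.57, 4.28 and 4.29 in HZ and 3.65, 4.65, 4.40 and 4.56 in KO by its brightest probe. The low value on KO replicate 1 was not seen with the dimmer Psma6 probe, which read 3.05 there and between 3.04 and 3.27 on the other KO arrays.

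**Figure D4:**
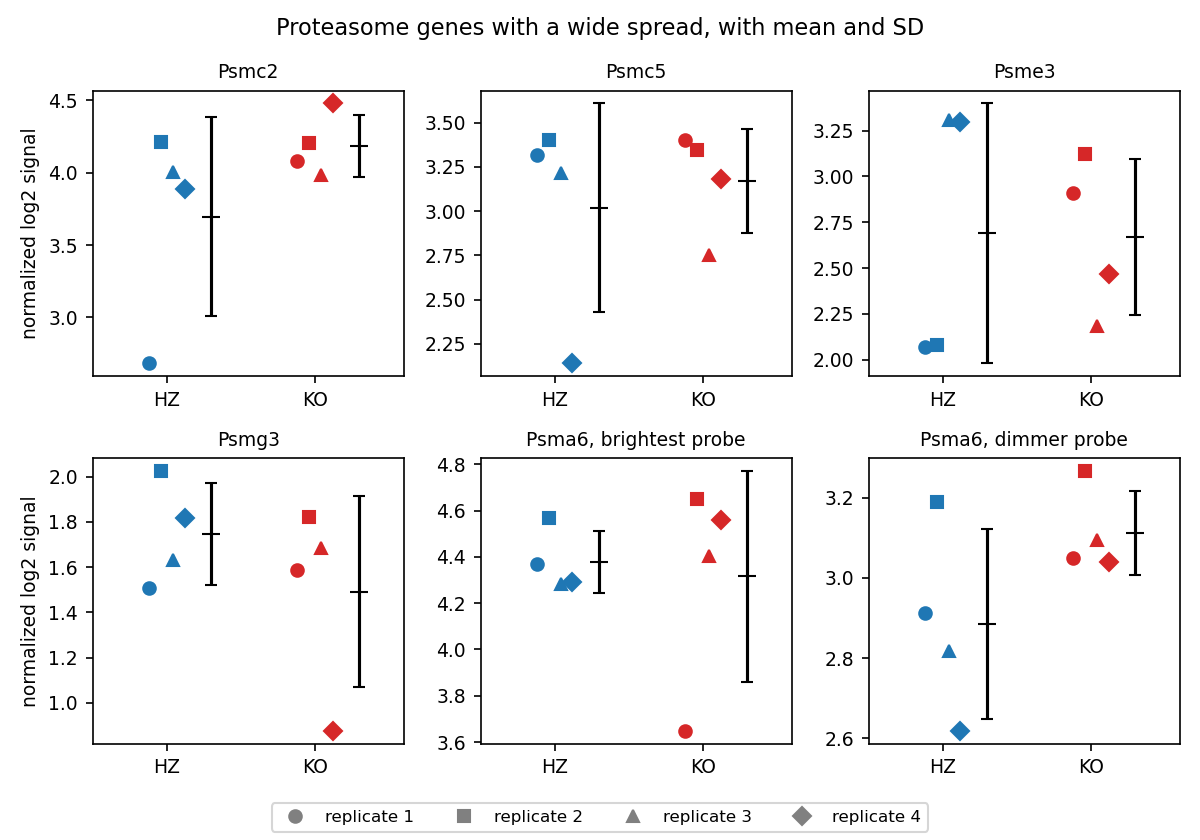
Normalized log2 signal on each array for Psmc2, Psmc5, Psme3, Psmg3 and both probes of Psma6, with HZ in blue, KO in red, marker shapes for the replicate number, and black bars for mean and SD (n = 4), each panel on its own axis. A single low array stands apart for Psmc2 (HZ replicate 1), Psmc5 (HZ replicate 4), Psmg3 (KO replicate 4) and the brightest Psma6 probe (KO replicate 1), and Psme3 is split within both groups.

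Of the 18 proteasome genes with several tested probes, 9 had probes with differences of opposite sign. Those genes were Psma4, Psma6, Psmb2, Psmb6, Psmc3, Psmc4, Psmd1, Psmd2 and Psmd14. Most of the 43 genes nevertheless varied little among arrays of a group. Their median residual SD was 0.138, against 0.172 over all tested genes, which include genes not well above background on every array. The SD exceeded 0.3 for 6 genes, namely Psme3, Psmc2, Psmc5, Psmg3, Psma6 and Psmd14.

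Within the groups, many proteasome genes ranked the arrays in a like order, although the activators and the 20S chaperones did not. HZ replicate 2 was the highest HZ array for 39 of the 43 genes, against 44.6% of all genes, and HZ replicate 4 was the lowest for 25 of them, against 36.3%. Among the KO arrays, replicate 2 was the highest for 19 genes (44.2%, against 35.6% of all genes) and replicate 3 the lowest for 24 (55.8%, against 28.3%). The mean deviation of the 43 genes from their 8-array means was -0.082, 0.129, -0.050 and -0.116 on HZ replicates 1 to 4 and 0.016, 0.134, -0.078 and 0.047 on the KO replicates. By replicate number, the KO minus HZ difference of this mean was 0.0984, 0.0048, -0.028 and 0.163 in pairs 1 to 4, so that 3 of 4 pairs were higher in KO and the mean of 0.0596 was smaller than the SD of 0.0873 between pairs. For the constitutive beta genes it was higher in KO in 4 of 4 pairs, by 0.132, 0.0185, 0.0745 and 0.284 (mean 0.127, SD 0.114). No other subcomplex was higher in every pair. The 19S chaperones and the inhibitor were higher in 3 pairs. The alpha genes, ATPases, activators and 20S chaperones were higher in 2, and the non-ATPase genes and Psmb10 in 1. Of the single genes, 9 of the 43 (20.9%) were higher in KO in 4 of 4 pairs, namely Psma3, Psma5, Psmb1, Psmb3, Psmc6, Psmd4, Psmd5, Psmd12 and Psmd13, beside 14.9% of the probes and 18.9% of all genes. None of the 43 was lower in 4 of 4 pairs, beside 10.5% of the probes and 9.91% of all genes. Across the 8 arrays, the median correlation between pairs of the 43 genes, taken on deviations from the group means, was 0.451, beside 0.0505 between pairs of all 14738 genes with values on every array. It was 0.545 among the 19S non-ATPase genes and 0.539 among the alpha genes. It was 0.464 among the constitutive beta genes, 0.238 among the ATPases, 0.281 among the 19S chaperones, -0.011 among the 20S chaperones and -0.275 among the activators. All genes of an array share its scaling.

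The 75th percentile used for scaling was highest on HZ replicate 2 (1024 intensity units) and KO replicate 2 (996), and lay between 882 and 973 on the other arrays. With quantile normalization the mean deviation was 0.074 on HZ replicate 2 and 0.087 on KO replicate 2, still the highest of each group. Markers of dividing progenitors, Muller glia, bipolar cells and endothelium were also highest on replicate 2 of each group. The dividing progenitor markers had mean deviations of 0.798 on HZ replicate 2 and 0.495 on KO replicate 2, the Muller glia markers 0.591 and 0.408, the bipolar markers 0.472 and 0.063, and the endothelial markers 0.345 and 0.501. Rod markers were lowest on these arrays, with -0.108 and -0.157. The part of scaling or of these cells in the proteasome values was not tested.

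**Figure D5:**
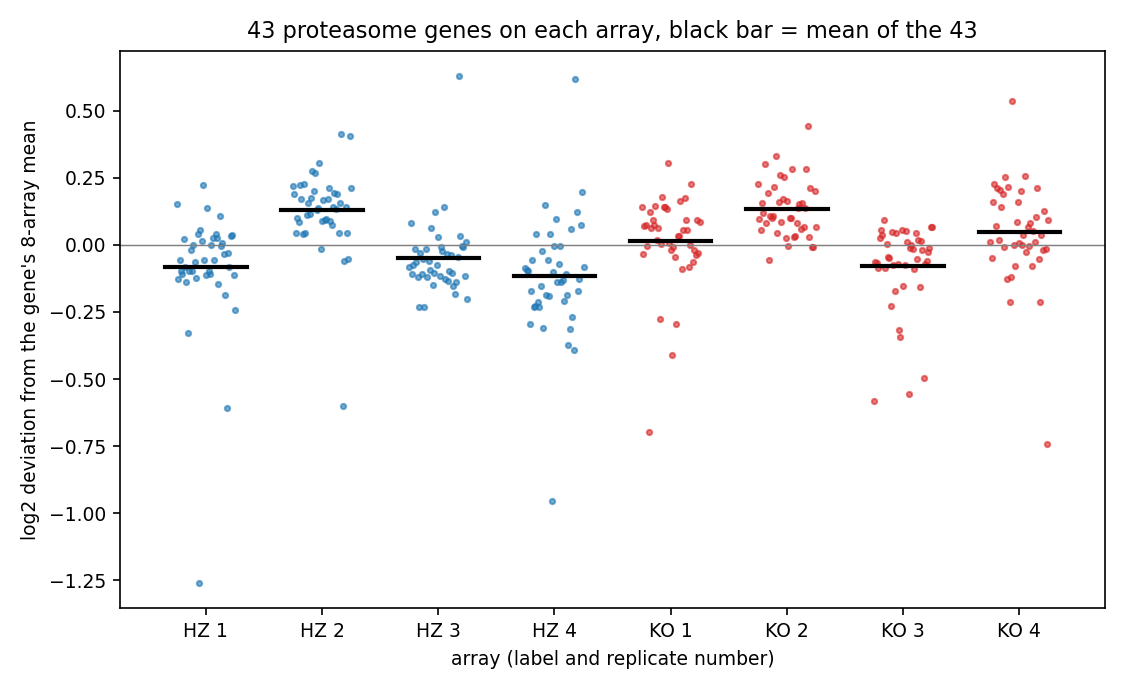
Deviation of each of the 43 tested proteasome genes from its own 8-array mean (points, log2 scale) on each HZ (blue) and KO (red) array, with the mean of the 43 genes as a black bar. The bars of HZ replicate 2 (0.129) and KO replicate 2 (0.134) are the highest, and those of HZ replicate 4 (-0.116), HZ replicate 1 (-0.082) and KO replicate 3 (-0.078) the lowest.

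HZ replicate 2 alone had a large effect on the comparison, over all probes as well as for the proteasome genes. Without it, 5 of the 43 genes were higher in KO at an unadjusted p under 0.05, namely Psma7, Psmb1, Psmb3, Psmb5 and Psmg4, and the groups did not overlap for 9 genes. All 9 were higher in KO. These shares of 11.6% and 20.9% stood beside 14.6% and 16.9% of all probes in the same setting, counted in either direction. Higher in KO alone, 2472 of the 34280 probes had an unadjusted p under 0.05 in limma and 3443 had groups that did not overlap. The median difference was then 0.116, beside 0.057 over all tested genes, and the smallest adjusted p among the genes was 0.276. With normexp background correction, 6 genes were higher at an unadjusted p under 0.05, namely Psmb3, Psmc2, Psmd6, Psme4, Psmg1 and Psmg4, and Psmd14 was lower, in all 16.3% of the 43 genes beside 9.95% of the probes. Psmb1 was not among them. Psmc2, 1 of the 43 genes, passed a fold of 1.5 with an adjusted p under 0.5 in limma under both of these settings. Of the 34280 probes, 371 passed higher and 1359 lower without HZ replicate 2, and 90 higher and 300 lower with normexp correction. Both settings keep HZ replicate 1, and without that array alone the Psmc2 difference was 0.15.

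Genes that work with the proteasome were read as 4 further lists, and they were not tested against the proteasome genes. Of 12 genes for partners of the complex, 11 were tested, 9 were higher and 2 lower in KO, and none passed an unadjusted p of 0.05. Their median difference was 0.072. The largest were those of Uchl5, a deubiquitinase bound to the 19S particle, with 0.24 (SE 0.117), and Pomp, the maturation factor of the core, with 0.16 (SE 0.108). No probe was matched to Paaf1.

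Of 11 genes that regulate proteasome gene expression, 10 were tested, with a median difference of 0.018, 6 higher and 4 lower. Nfe2l1, whose product NRF1 is the transcription factor that raises proteasome genes when the proteasome is inhibited, had a difference of -0.11 (SE 0.117), and Nfe2l2 of 0.063 (SE 0.088). Sel1l, a cofactor of the ubiquitin ligase that acts on NRF1 and other proteins of the endoplasmic reticulum, read 3.79, 3.72, 3.76 and 4.01 in HZ and 3.56, 3.59, 3.62 and 3.65 in KO. Every KO array was below every HZ array, with a difference of -0.22 (SE 0.088), an unadjusted p of 0.040 and an adjusted p of 0.595 in limma. Mafk, a partner of NRF1 and NRF2, had a difference of -0.29 (SE 0.135, limma adjusted p = 0.623), and Maff was not above background.

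All 16 genes for ubiquitin, its activating enzymes and the shuttle factors were tested, with a median difference of 0.094, 11 higher and 5 lower. Ubqln4, a shuttle factor that brings ubiquitinated proteins to the proteasome, read -1.31, -1.28, -1.47 and -1.32 in HZ and -1.08, -1.11, -1.04 and -0.88 in KO. The groups did not overlap, with a difference of 0.32 (SE 0.089), an unadjusted p of 0.0067 and an adjusted p of 0.444 in limma. Rad23b, another shuttle factor, had a difference of 0.20 (SE 0.119).

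Immunoproteasome subunits are induced together with genes of antigen presentation, so that 18 such genes and interferon response genes were also read. Of these, 13 were tested, with a median difference of 0.023, 7 higher and 6 lower. H2-D1, a class I heavy chain, read 0.31, 0.34, 0.13 and 0.25 in HZ and 0.55, 0.60, 0.37 and 0.63 in KO, with a difference of 0.28 (SE 0.093), an unadjusted p of 0.016 and an adjusted p of 0.514 in limma. The groups did not overlap for H2-D1. Class I genes form a family of near-identical copies, and the probe may read more than 1 of them. Erap1, the peptidase that trims antigenic peptides, had a difference of -0.24 (SE 0.198). The interferon response genes Ifit1, Ifit3, Gbp2 and Gbp3 were not above background on enough arrays to be tested, as was Nlrc5, the activator of class I genes.

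Marker transcripts of some other cells differed in mean level between the groups, although none passed an adjusted p of 0.05 in limma. The markers of retinal pigment epithelium (RPE) had a median difference of -1.56, all 14 tested of 15 were lower in KO, 12 had an unadjusted p under 0.05 and the smallest adjusted p was 0.278 in limma. Their mean deviation lay between 0.134 and 1.31 on the HZ arrays and between -1.5 and -0.19 on the KO arrays. All 12 microglia markers were higher in KO, with a median difference of 0.779, 4 of them at an unadjusted p under 0.05 and all 12 with overlapping groups, and mean deviations from -0.784 to 0.444 in HZ and from -0.021 to 0.840 in KO. The 12 rod markers had a median difference of -0.102, with 2 higher and 10 lower and none at an unadjusted p under 0.05. At that threshold in limma, 4.69% of all probes were higher and 3.49% lower in KO. The part of these cells in the proteasome differences was not tested.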

How the data were processed

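RNA of CD73-positive photoreceptor cells was labelled with Cy3 and hybridised to 8 arrays. The authors deposited the scanner output of Agilent Feature Extraction 10.7.1.1, as background-corrected signal intensity per spot with its marks for outliers and for signal well above background, and GeneSpring output on the log2 scale (75 percentile shift), each probe centred on its median over the arrays.

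From the intensities, the log2 signal was taken relative to the array's 75th percentile, without outlier spots and averaged per probe. Probes that exceeded background clearly on 4 or more arrays, with at least 3 values per group, were tested (34280). Probe names came from RefSeq accessions (GRCm38.p6, names only); 32994 of 56605 matched. HZ and KO were compared by label, by limma 3.58.1 (lmFit, eBayes, two-sided tests; R 4.3.3) and Benjamini-Hochberg adjustment over all tested probes, after a test on simulated data. Plots used matplotlib 3.10.9.

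The members, gene lists, thresholds and tests were chosen with earlier results of these data known. Named members are the catalytic subunits, those with an unadjusted p under 0.05 or groups that do not overlap, and the 2 with the largest difference in each subcomplex. Of other lists, genes with an unadjusted p under 0.05 and the 2 largest differences are named, except for cell type markers, which are given by counts.

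Replicate numbers in the labels, which also give the slide column, were checked as a pairing. Deviations from group means correlated with r of 0.172 to 0.337 for same-numbered arrays, above 0.1 in 4 of 4 pairs. Arrays of unlike number gave r from -0.337 to 0.117, where HZ replicate 1 with KO replicate 3 was also above 0.1. The numbers were therefore taken as a pairing in the replicate block, while the main tests are unpaired.

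Alternatives were normexp background correction (offset 50), quantile normalization, a percentile over the probes detected on every array, the filter on dim probes dropped or made stricter, trend and robust eBayes, the methods' t-test, the replicate block, the deposited log2 values, the mean of a gene's probes and each array left out. Normexp correction started from the median signal and median background of each spot. It therefore changed the signal measure as well as the background correction. The number of arrays limits the precision.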

Additional observations from a re-analysis of the deposited data

Results flagged for a closer look

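In 5 of the 102 groups of 4 values checked, a single array stood far from the other 3, and chance gives about 1 in 20 groups, or 5.1. Psmb6 read 5.59 on HZ replicate 2 by its brightest probe, against 5.46 to 5.48 on the other HZ arrays. Psmc5 read 2.14 on HZ replicate 4, against 3.22 to 3.40. Psme1 read 1.40 on KO replicate 2, against 1.07 to 1.12 on the other KO arrays, and Psmf1 read 1.95 on the same array, against 1.68 to 1.72. Psmg2, a chaperone of the 20S core, read 1.80 on KO replicate 1, against 1.70 on each of the other KO arrays. The Psmc5 value changed the direction of the group difference, as given above.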

How the results depend on the processing

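Of 18 alternatives, 5 leave the difference of a gene as it is (both filters on dim probes, trend and robust eBayes, the methods' t-test and the replicate block). Among the 245 differences of the 20 named genes that the other 13 could change, 237 kept their direction, and 14 genes never turned. The 8 that turned were Psmb6 without KO replicate 3 (0.030) and with the mean of its probes (0.14), Psmc5 without HZ replicate 4 (-0.14), Psmd14 without KO replicate 3 (0.0046), Psme1 without HZ replicate 4 (-0.0068), Psme4 with normexp correction (0.18) and without HZ replicate 4 (0.0028), and Psmf1 without KO replicate 2 (-0.0035). With each array left out, these genes ranged from -0.118 to 0.030 (Psmb6), -0.142 to 0.290 (Psmc5), -0.275 to 0.0046 (Psmd14), -0.0068 to 0.261 (Psme1), -0.058 to 0.0028 (Psme4) and -0.0035 to 0.115 (Psmf1). No named gene had an adjusted p below 0.276 in limma or in the methods' t-test.

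The count of genes higher in KO at an unadjusted p under 0.05, 1 in the report, was 6 with normexp correction. It was 2 with trend and robust eBayes (4.65% of the genes) and 3 by the methods' t-test (6.98%). Higher in KO alone were 1935 of the 34280 probes with trend and robust eBayes and 2103 by the t-test. In either direction, these settings called 8.93% and 9.14% of the probes. The count higher was 2 with the mean of a gene's probes, beside 10% of all genes in either direction. With each array left out it was 1 to 5. The count lower was 1 with normexp correction and 0 to 0 with each array left out. With the replicate number as a block, it was 1 higher and 0 lower (2.33%, beside 11.9% of all probes), and the pairing changed no call on a proteasome gene. The inhibitor median was 0.225 with the mean of both probes, and the 20S chaperone median was 0.154 with normexp correction. The activator median turned to 0.130 with normexp correction. With quantile normalization the non-ATPase median turned to -0.015 and the 20S chaperone median to -0.0080, and the medians of the alpha genes (0.030), ATPases (0.024) and constitutive beta genes (0.107) were smaller.

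With each array left out, the median difference ranged from 0.035 to 0.116 over all 43 genes, 0.067 to 0.143 for alpha genes, 0.079 to 0.233 for constitutive beta genes, -0.182 to -0.049 for Psmb10, -0.0051 to 0.137 for ATPases, 0.013 to 0.092 for non-ATPase genes, 0.061 to 0.216 for 19S chaperones, -0.058 to 0.131 for activators, -0.0035 to 0.115 for the inhibitor and 0.012 to 0.045 for 20S chaperones. The Psmb10 minus Psmb7 difference ranged from -0.419 to -0.174. The cause of these changes was not tested. Signal over background limits the inducible subunits, and probe choice limits the 9 genes whose probes differed in sign.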

Other observations

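Other cell type markers varied as follows. All 9 cone markers were higher in KO, with a median difference of 0.314. At an unadjusted p under 0.05 in limma, 1 of them (11.1%) was called, beside 4.69% of all probes higher in KO. The mean deviation of the cone markers was split within HZ, at -0.943, 0.387, 0.570 and -0.560 on replicates 1 to 4, against -0.211 to 0.447 in KO. Of the 8 bipolar markers, 2 were higher and 6 lower, with a median of -0.211. Of the 8 Muller glia markers, 2 were higher and 6 lower, with a median of -0.200. Lower in KO at an unadjusted p under 0.05 in limma was 1 Muller glia marker (12.5%), beside 3.49% of all probes. Of 9 amacrine and ganglion markers 3 were tested, with a median of -0.384, and of 7 endothelial markers 5 were tested, with a median of -0.0054. Of 8 dividing progenitor markers 7 were tested, with 4 higher and 3 lower and a median of 0.094.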
